A study of Mus musculus with 6 samples.

Results

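The genes described here are 10 receptors through which hematopoietic stem and progenitor cells are held in, leave and return to the bone marrow: the chemokine receptor Cxcr4, the sphingosine 1-phosphate receptor S1pr1, the integrin chains Itga4, Itga5, Itga6, Itgb1, Itgal and Itgb2, the selectin ligand Selplg and the hyaluronan receptor Cd44. They were chosen by symbol and not by a rule on their counts, but with earlier results of these data known. All 10 were found among the 16022 gene symbols of the table. In the GENCODE M21 annotation all are protein-coding, with Itga4, Itga6 and Cd44 on chromosome 2, Cxcr4 on chromosome 1, S1pr1 on 3, Selplg on 5, Itgal on 7, Itgb1 on 8, Itgb2 on 10 and Itga5 on 15. RNA was sequenced from bone marrow LSK cells (lineage-negative, Sca-1-high, c-kit-positive), the mouse fraction that contains the stem cells and earliest progenitors. The 6 libraries comprised 3 from HDAC6 knockout (KO) mice and 3 from wild-type (WT) mice. HDAC6 is a mainly cytoplasmic deacetylase that acts on tubulin and cortactin. No source used here gives the deleted part of the gene, the strain, age and sex of the mice, or whether mice were pooled. Nothing states that the libraries came from separate mice. Each p-value therefore weighs the difference between the groups only against the spread of these samples, which may be technical.

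Stem cells circulate in small numbers and return to the marrow in steps. Selectins on the vessel wall catch glycosylated PSGL-1 (the product of Selplg) and CD44, CXCL12 made by marrow stroma acts through CXCR4 and switches integrins to their high-affinity form, and the integrins then bind VCAM-1, fibronectin, laminin or ICAM-1. An integrin is a heterodimer of an alpha and a beta chain, so that Itgb1 is shared by the Itga4, Itga5 and Itga6 products while Itgb2 pairs with the Itgal product to form LFA-1. S1P, which is more concentrated in blood and lymph than in tissue, draws cells outward through S1PR1, the opposite pull to that of CXCL12.

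All 10 genes were expressed in both genotypes, and 0 of 10 passed the test between them, against 1 of 12875 tested genes (0.00777%), which was Hdac6 itself (edgeR quasi-likelihood test, Benjamini-Hochberg adjusted p under 0.05). S1pr1 was the 1 member whose KO and WT libraries did not overlap, at 68.2% of the WT mean in the KO (log2 fold change -0.55, SE 0.16, edgeR adjusted p = 0.298). Groups without overlap were found in 18.6% of all tested genes, so 1 of 10 members is below that share. By the edgeR test, 1 member (S1pr1, unadjusted p = 0.00679) was under 0.05 before adjustment, against 13.4% of all tested genes. DESeq2 called 0 of the 10, against 1.35% of the genes to which it gave an adjusted p, and limma-voom called 0 of the 10 and 1 gene over the table (0.00777%). Without KO replicate 3 edgeR called 0 of the 10 members, against 30 genes higher and 14 lower in KO over 13125 tested (0.335%).

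The libraries held between 25993988 and 28743694 estimated counts, and levels are given as CPM (counts scaled to library size, normalised by TMM). Hdac6 stood at 9.62, 7.69 and 11.28 CPM in KO replicates 1, 2 and 3, against 67.97, 58.24 and 54.32 CPM in the WT replicates, and fell by 2.66 on the log2 scale (SE 0.19, edgeR adjusted p = 0.000594), in the direction the labels give. KO replicate 3 lay closer to the WT libraries than to the other KO libraries: chi-square per degree of freedom between their counts was 24.9 to 34.2 with WT libraries, but 51.5 and 55.8 with KO libraries. The gate markers were strongly expressed, with Kit at 725 to 1082 CPM in KO and 1127 to 1367 CPM in WT, and Ly6a (Sca-1) at 82.1 to 119 CPM in KO and 60.3 to 68.7 CPM in WT. Neither gate marker overlapped between the groups, Kit being lower and Ly6a higher in KO (edgeR adjusted p = 0.298 for both). Among markers of other cells, the summed level of 8 monocyte and macrophage genes was 216, 864 and 304 CPM in KO replicates 1, 2 and 3, against 149 to 248 CPM in WT. Of these 8 genes, 6 lay above WT. C1qb was among those below, with 11.2, 9.03 and 6.38 CPM in KO, against 16.1, 12.1 and 9.77 CPM in WT. The 12 T and natural killer cell genes summed to 327 to 436 CPM in KO and 348 to 388 CPM in WT. Their T cell genes Cd3e, Cd3d and Cd3g were at 0 in some libraries and at most 0.471 CPM in the others, while Lck, a kinase gene of T and natural killer cells, stood at 47.5, 43.9 and 57.4 CPM in KO, against 76.7, 63.5 and 58.4 CPM in WT. On the same list Il2rb, a receptor gene of natural killer cells, stood at 8.78, 23.6 and 33.3 CPM in KO. Its WT levels were 2.87, 5.76 and 5.15 CPM, so that Il2rb and Lck ran in opposite directions. Of the 9 tested genes on this list, 7 lay above WT, as Il2rb did. Nkg7, which makes up most of the sum, overlapped between the groups at 256 to 312 CPM in KO and 260.4 to 311 CPM in WT. The 10 neutrophil genes summed to 16.4 to 39.4 CPM in KO and 42.0 to 110.0 CPM in WT. Among them Ltf, which encodes lactoferrin, stood at 1.02 to 2.86 CPM in KO and 5.87 to 24.7 CPM in WT. Of these 10 genes, all tested, 2 lay above WT. Cebpe had its highest level in KO replicate 2, and the levels of Lcn2 overlapped between the groups. The B cell list summed to 66.7 to 101 CPM in KO and 57.7 to 90.7 CPM in WT, most of it Cd79b. The megakaryocyte list summed to 179 to 267 CPM in KO and 245 to 284 CPM in WT. Most of that was Itga2b, at 143 to 205 CPM in KO and 169 to 198 CPM in WT, and 1 of 7 tested genes lay above WT. The stromal and endothelial list summed to 371 to 484 CPM in KO and 418 to 521 CPM in WT. Most of that was Eng, at 257 to 351 CPM in KO and 324 to 386 CPM in WT. Cxcl12 reached at most 3.01 CPM and Col1a1 at most 0.833 CPM in any library. In bulk RNA, fewer cells of a type and less RNA per cell cannot be told apart.

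**Figure D1:**
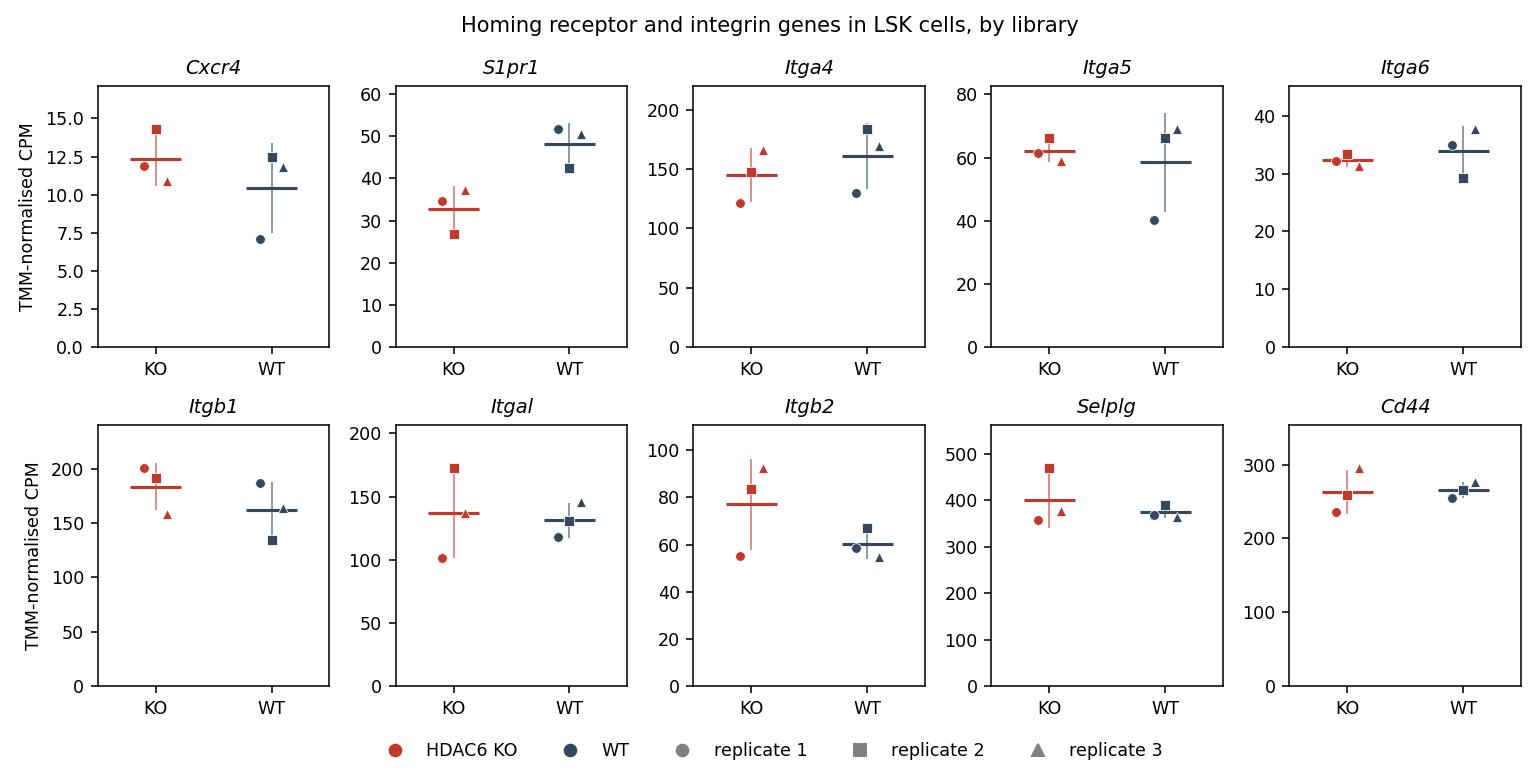
TMM-normalised CPM of each of the 10 genes in the 3 HDAC6 KO libraries (left in each panel) and the 3 WT libraries (right); horizontal lines are means and vertical lines 1 SD, and every axis starts at 0. The S1pr1 panel is the 1 without overlap, with 26.79 to 37.16 CPM in KO and 42.39 to 51.63 CPM in WT.

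Of the members that sense a chemoattractant, S1pr1 had groups that did not overlap and Cxcr4 had groups that did. S1pr1 measured 34.59, 26.79 and 37.16 CPM in KO replicates 1, 2 and 3, against 51.63, 42.39 and 50.46 CPM in WT replicates 1, 2 and 3. Every KO library lay below every WT library, with a gap between the groups smaller than the range within either. Group means were 32.8 ± 5.40 CPM in KO and 48.2 ± 5.03 CPM in WT (SD, n = 3 each), and the 95% interval of the fold change reached from 0.531 to 0.877 of WT before any correction for the number of genes. An exact two-sided permutation test gave p = 0.1, the smallest that 3 against 3 allows. The DESeq2 adjusted p was 0.0944, the lowest over all alternatives. Without KO replicate 3 the log2 fold change was -0.65, and without KO replicate 2 it was -0.42. The 10 genes of the LSK gate and of stem cells, all found in the table, summed to 3653, 3475 and 4495 CPM in KO replicates 1, 2 and 3, against 4917, 4817 and 4363 CPM in the WT replicates. The part of a different cell mixture in the S1pr1 level was not tested.

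Cxcr4, the receptor for CXCL12, had the fewest counts of the 10 genes, at 11.86, 14.28 and 10.88 CPM in KO replicates 1, 2 and 3, against 7.07, 12.45 and 11.81 CPM in the WT replicates. These values rest on 300 to 394 counts per KO library and 197 to 352 per WT library. WT replicate 1 was the low library, and the other WT libraries lay inside the KO range. The log2 fold change was 0.24 (SE 0.26, edgeR adjusted p = 0.705), with a 95% interval of the fold from 0.786 to 1.78. That interval is the widest of the 10 genes on the log2 scale. Leaving out WT replicate 1 brought the log2 fold change to 0.03.

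Since CXCR4 and S1PR1 are known to pull in opposite directions, the ratio of their mRNAs was taken within each library, where scaling between libraries cancels. On the FPKM scale (fragments per unit of transcript length and of depth, which allows different genes to be compared), Cxcr4 over S1pr1 was 0.597, 0.934 and 0.513 in KO replicates 1, 2 and 3, against 0.237, 0.508 and 0.391 in WT replicates 1, 2 and 3. The groups did not overlap, but KO replicate 3 (0.513) and WT replicate 2 (0.508) nearly met. The mean log2 ratio was -0.60 ± 0.45 in KO and -1.47 ± 0.56 in WT (SD, n = 3 each), a difference of 0.87 or a 1.82-fold higher ratio (exact two-sided permutation p = 0.1, adjusted p = 0.5 over the 5 ratios examined). With CPM in place of FPKM the difference was 0.84 and the exact permutation p 0.2, because the groups then overlapped. Leaving out 1 library at a time gave differences from 0.56 (without WT replicate 1) to 1.11 (without WT replicate 2). The ratio contains the S1pr1 values, whose groups did not overlap by themselves, and so is not a separate result. Taken singly, S1pr1 had a log2 fold change of -0.55 and Cxcr4 of 0.24.

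**Figure D2:**
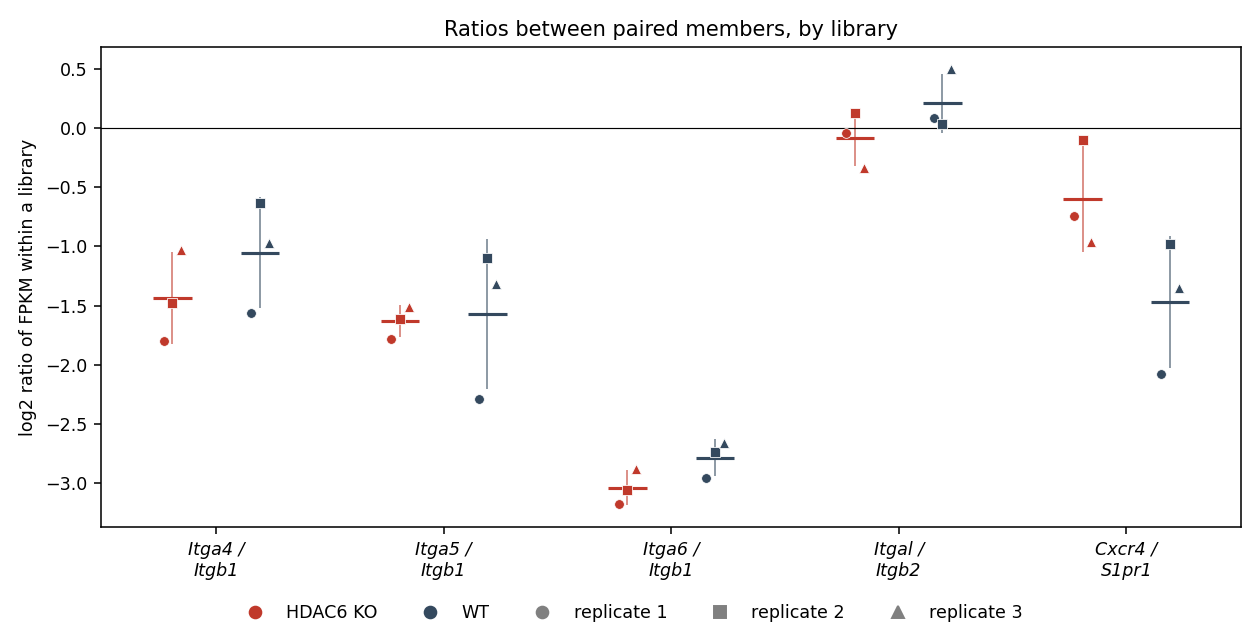
Log2 ratio of FPKM between paired genes within each library, for HDAC6 KO (left of each pair) and WT (right), with means as horizontal lines and 1 SD as vertical lines. Cxcr4 over S1pr1 runs from -0.96 to -0.10 in KO and from -2.08 to -0.98 in WT, while the other 4 ratios overlap between the genotypes.

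Other genes of the S1P system were read beside S1pr1. The list of S1P turnover and S1pr1 control held 12 genes, of which 11 were tested, 0 passed by edgeR in either direction, and 3 had an unadjusted p under 0.05. Over all tested genes 13.4% had such a p, the share to read beside this list and each list below. Its median log2 fold change was 0.10, against 0.00 over all tested genes. Spns2, an exporter that releases S1P from cells, stood at 82.73, 77.84 and 97.31 CPM in KO replicates 1, 2 and 3, against 133.7, 130.9 and 118.3 CPM in the WT replicates, with every KO library below every WT library. Its log2 fold change of -0.57 (SE 0.12) had an edgeR adjusted p of 0.298, while DESeq2 gave an adjusted p of 0.0107 and so called it. DESeq2 called no other of the 152 tested genes of the 8 related lists, a share of 0.658%, which is below the 1.35% it called over the table. Mfsd2b, the S1P exporter of red cells and platelets, had overlapping groups, at 60.1 to 103.2 CPM in KO and 55.05 to 66.67 CPM in WT (log2 fold change 0.50, SE 0.19, edgeR adjusted p = 0.331). The 8 erythroid marker genes summed to 139, 321 and 315 CPM in KO replicates 1, 2 and 3, against 129 to 181 CPM in WT. Most of that sum was Car1, a carbonic anhydrase gene, at 90.6, 212 and 209 CPM in KO and 79.2 to 105 CPM in WT, while the globin gene Hbb-bt was lower in every KO library, at 4.93 to 8.48 CPM in KO and 9.73 to 13.4 CPM in WT. The part of erythroid cells in Mfsd2b was not tested. Sphk1, a kinase that makes S1P, had 5.655, 14.65 and 15.16 CPM in KO, against 5.13, 4.38 and 7.68 CPM in WT (log2 fold change 1.04, SE 0.39, edgeR adjusted p = 0.327), with KO replicate 1 inside the WT range. Among enzymes that remove S1P, the lyase gene Sgpl1 had a log2 fold change of 0.00 (SE 0.13). The phosphatase genes went both ways, with log2 fold changes of 0.48 (SE 0.35) for Sgpp1, -1.16 (SE 0.79) for Sgpp2, 0.56 (SE 0.52) for Plpp1, 0.29 (SE 0.17) for Plpp2 and -0.67 (SE 0.48) for Plpp3. Of these, Plpp1 alone had groups without overlap, at 1.559 to 2.203 CPM in KO and 0.99 to 1.36 CPM in WT, and its edgeR adjusted p was 0.651.

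Among the other S1P receptors, S1pr4 was the more abundant per length (mean FPKM 52.6 in KO and 71.3 in WT, where S1pr1 had 11.4 in KO and 17.5 in WT) and also had non-overlapping groups, with 104.4, 108.9 and 137.6 CPM in KO, against 142.8, 153.8 and 157.8 CPM in WT (log2 fold change -0.37, SE 0.13, edgeR adjusted p = 0.31). S1pr2, a receptor that opposes migration toward S1P, measured 43.44, 42.74 and 31.47 CPM in KO and 29.08, 30.13 and 32.40 CPM in WT. Its log2 fold change was 0.36 (SE 0.16, edgeR adjusted p = 0.374). S1pr3 reached 88.71 CPM in KO replicate 2 but 46.75 to 55.91 CPM in the other 5 libraries. S1pr5 was not tested, with 0 to 0.544 CPM in KO and 0 in all WT libraries. CD69, a surface protein that removes S1PR1 from the membrane, was at a level of 41.4 ± 4.16 CPM in KO and 38.6 ± 5.0 CPM in WT (SD, n = 3 each). Klf2, a transcription factor known to switch on S1pr1 in T cells, did not pass the filter on low counts, with at most 0.251 CPM in any library.

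**Figure D3:**
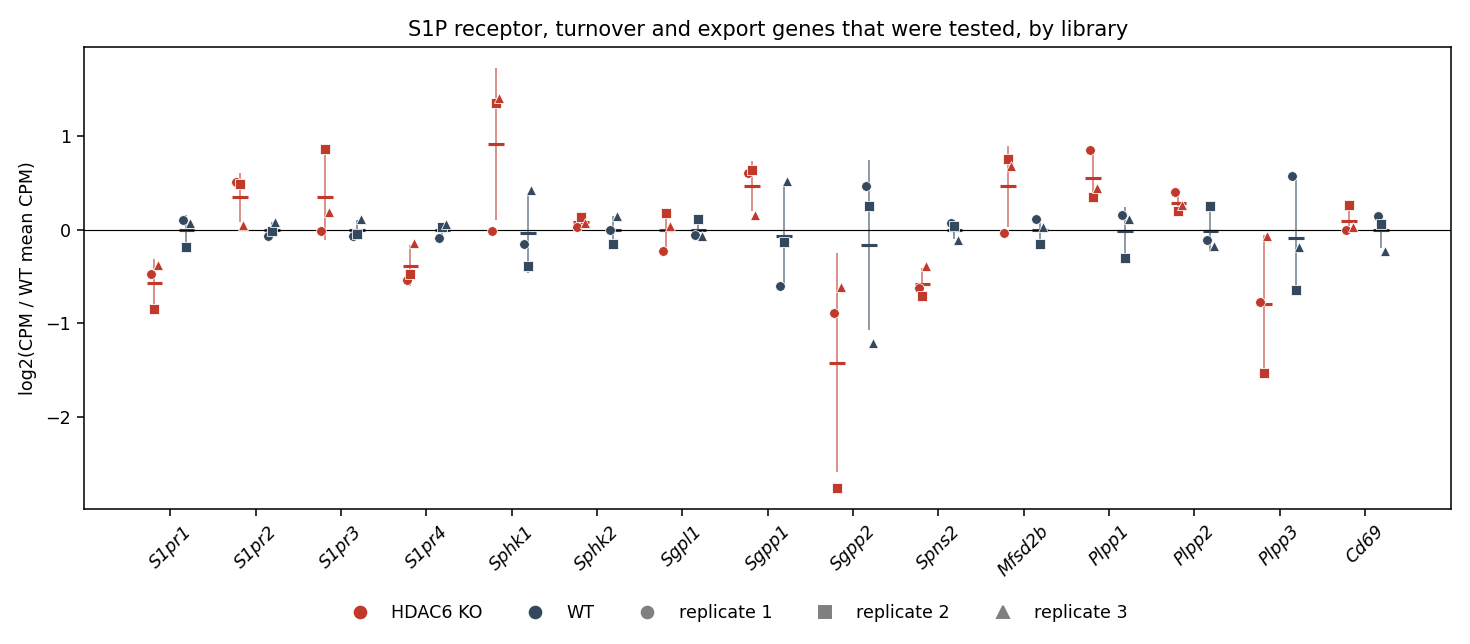
Log2 of CPM over the WT mean for the tested S1P receptor, turnover and export genes, with HDAC6 KO left of WT for each gene, means as horizontal lines and 1 SD of the plotted values as vertical lines. All 3 KO points lie below the WT points for S1pr1, S1pr4 and Spns2 and above them for Plpp1, and none of these genes passed the edgeR test.

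The integrin chains that bind VCAM-1, fibronectin and laminin did not separate the genotypes. Itga4, whose product binds VCAM-1 and fibronectin as part of VLA-4, measured 121.4, 147.2 and 166.1 CPM in KO replicates 1, 2 and 3, against 130.0, 183.3 and 169.6 CPM in the WT replicates. The lowest library of each group was its replicate 1, and the ranges overlapped widely (log2 fold change -0.15, SE 0.16, edgeR adjusted p = 0.685). Itga4 was the 1 member with fractional counts, in all 6 libraries. In the GENCODE M21 annotation of GRCm38 its exons overlap those of Cerkl on the opposite strand, and no source used here gives the strand setting of the counting. Cerkl itself had 3.01 to 3.59 CPM in KO and 3.30 to 4.77 CPM in WT.

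Itga5, the alpha chain of the classical fibronectin receptor, was at 61.62, 66.13 and 58.85 CPM in KO replicates 1, 2 and 3, against 40.39, 66.08 and 68.93 CPM in the WT replicates. WT replicate 1 again stood low, as it did for Cxcr4, and the log2 fold change of 0.09 (SE 0.19, edgeR adjusted p = 0.856) was -0.12 without it. Itga6, whose product binds laminin and which is used as a surface marker of human stem cells, spanned 31.33 to 33.46 CPM in KO and 29.24 to 37.63 CPM in WT. Its KO libraries lay wholly within the WT range, with a coefficient of variation of 3.35% in KO and 12.6% in WT (log2 fold change -0.07, SE 0.15, edgeR adjusted p = 0.854).

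Itgb1, the beta chain that all 3 of these share, was at 200.1, 191.3 and 158.7 CPM in KO replicates 1, 2 and 3, against 186.7, 134.3 and 163.6 CPM in WT. Group means were 183 ± 21.8 CPM in KO and 162 ± 26.2 CPM in WT (SD, n = 3 each; log2 fold change 0.18, SE 0.14, edgeR adjusted p = 0.584). Taken within libraries on the FPKM scale, Itga4 over Itgb1 was 0.287, 0.358 and 0.489 in KO replicates 1, 2 and 3, against 0.339, 0.648 and 0.510 in the WT replicates. The mean log2 ratio differed by -0.39 (exact permutation p = 0.4, adjusted p = 0.5 over the 5 ratios). Itga6 over Itgb1 differed by -0.25 on the same scale (exact permutation p = 0.2, adjusted p = 0.5), from 0.110 to 0.135 in KO and from 0.129 to 0.159 in WT. Itga5 over Itgb1 ran from 0.292 to 0.352 in KO, inside the WT range of 0.205 to 0.467.

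RefSeq promoter windows were available for 5 of the 10 genes. Those of Cxcr4, Itga4 and Itgb1 are shown because they are the CXCL12 receptor and both chains of VLA-4, which the ratios above set side by side. Each window is 300 bases of GRCm38.p6, from 250 before to 50 after the annotated start, on the strand of the gene: chr1:128592250-128592549 (minus strand) for Cxcr4, chr2:79255176-79255475 (plus) for Itga4 and chr8:128685404-128685703 (plus) for Itgb1. Capitals mark the TATA box letters TATAAA and the GC box letters GGGCGG, each searched on both strands, so that a match on the other strand reads as its reverse complement.
Cxcr4: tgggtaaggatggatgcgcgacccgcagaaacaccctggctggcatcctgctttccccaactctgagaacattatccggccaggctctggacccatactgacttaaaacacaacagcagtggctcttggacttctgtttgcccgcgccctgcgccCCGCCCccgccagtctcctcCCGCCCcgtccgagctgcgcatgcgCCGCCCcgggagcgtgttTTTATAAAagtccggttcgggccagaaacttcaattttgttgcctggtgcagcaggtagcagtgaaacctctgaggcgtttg
Itga4: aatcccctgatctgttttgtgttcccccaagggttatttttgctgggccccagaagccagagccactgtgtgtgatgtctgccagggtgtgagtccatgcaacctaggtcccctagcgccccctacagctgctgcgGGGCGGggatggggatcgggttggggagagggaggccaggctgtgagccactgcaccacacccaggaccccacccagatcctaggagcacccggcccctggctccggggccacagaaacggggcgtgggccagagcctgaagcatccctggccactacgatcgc
Itgb1: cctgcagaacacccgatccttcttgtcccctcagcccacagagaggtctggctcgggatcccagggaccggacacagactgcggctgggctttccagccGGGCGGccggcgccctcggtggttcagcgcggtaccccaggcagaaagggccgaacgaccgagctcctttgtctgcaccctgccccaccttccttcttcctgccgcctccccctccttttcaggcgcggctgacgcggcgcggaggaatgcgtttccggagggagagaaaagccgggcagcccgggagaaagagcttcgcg
The Cxcr4 window held TATAAA on both strands at overlapping positions, beginning 32 bases before the start, and 3 GC boxes. The windows of Itga4 and Itgb1 had 1 GC box each and no TATAAA. Of 32851 mouse promoter windows of this length, 13.6% contain TATAAA and 35.7% contain GGGCGG. The motif CCAAT, also searched, was in none of these 3 windows and is in 37.4% of all. C followed by G occurred 20 times in the Cxcr4 window, 10 times in that of Itga4 and 27 times in that of Itgb1. These letters describe the windows, and their part in the measured levels was not tested.

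The leukocyte integrin LFA-1 is formed by the products of Itgal and Itgb2 and binds ICAM-1. Itgal measured 101.1, 172.3 and 136.8 CPM in KO replicates 1, 2 and 3, against 118.0, 130.5 and 145.5 CPM in WT, so that the KO group held both the lowest and the highest library (log2 fold change 0.06, SE 0.18, edgeR adjusted p = 0.899). Itgb2, which also pairs with the alpha chains of myeloid integrins, was at 55.34, 83.71 and 92.24 CPM in KO replicates 1, 2 and 3, against 58.70, 66.97 and 54.81 CPM in the WT replicates. KO replicates 2 and 3 lay above all WT libraries and KO replicate 1 within them. The log2 fold change of Itgb2, 0.36 (SE 0.18, edgeR adjusted p = 0.413), was the largest positive one among the 10 members, with an interval of the fold from 0.965 to 1.70. Without KO replicate 1 it was 0.55, and without KO replicate 3 it was 0.21. LFA-1 and the shared Itgb2 chain are carried by mature lymphoid and myeloid cells as well. KO replicates 2 and 3 were also the libraries with the highest summed monocyte and macrophage markers (864 and 304 CPM) and the highest Il2rb (23.6 and 33.3 CPM). On these lists 6 of 8 and 7 of 9 tested genes lay above WT. C1qb of the first was lower there (9.03 and 6.38 CPM) than in every WT library (9.77 to 16.1 CPM). Lck of the second was also lower there (43.9 and 57.4 CPM) than in every WT library (58.4 to 76.7 CPM). The part of such cells in the Itgb2 and Itgal levels was not tested. Within libraries, Itgal over Itgb2 on the FPKM scale was 0.970, 1.09 and 0.789 in KO, against 1.07, 1.03 and 1.41 in WT, a mean log2 difference of -0.30 (exact permutation p = 0.3, adjusted p = 0.5 over the 5 ratios).

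Selplg and Cd44, the scaffolds on which selectin-binding sugars are built, were the most abundant members per length. Selplg was at 357.4, 468.3 and 376.0 CPM in KO replicates 1, 2 and 3, against 369.2, 389.2 and 365.0 CPM in the WT replicates. Only KO replicate 2, the library with the highest summed monocyte and macrophage markers, left the WT range upward. Its absence turned the log2 fold change, 0.10 with all libraries (SE 0.12, edgeR adjusted p = 0.729), to -0.03. Whether such cells contributed was not tested. Cd44, which binds hyaluronan, had 235.6, 258.6 and 294.7 CPM in KO, against 254.1, 265.3 and 276.0 CPM in WT. Its group means, 263 ± 29.8 CPM in KO and 265 ± 11 CPM in WT (SD, n = 3 each), were the closest of the 10 genes (log2 fold change -0.01, SE 0.11, edgeR adjusted p = 0.971). The interval of the Cd44 fold ran from 0.839 to 1.17. Its coefficient of variation was 11.3% in KO and 4.14% in WT, and that of Selplg was 14.8% in KO and 3.44% in WT.

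The enzymes that decorate these scaffolds were listed separately. Of 15 genes of selectin ligand glycosylation and sulfation, 14 were tested, 0 passed by edgeR, 3 had an unadjusted p under 0.05 and the median log2 fold change was 0.05. In all, 9 lay above WT and 5 below, and groups did not overlap in 3 with KO higher and 1 with KO lower, beside 18.6% of all tested genes. The 3 with the smallest p were the 3 with KO higher. St3gal4, a sialyltransferase of selectin ligands, measured 92.76, 102.5 and 92.96 CPM in KO, against 81.21, 67.71 and 79.53 CPM in WT (log2 fold change 0.34, SE 0.12, edgeR adjusted p = 0.313). B4galt1, a galactosyltransferase, had a log2 fold change of 0.36, with 139 ± 16.4 CPM in KO and 109 ± 13.1 CPM in WT (SD, n = 3 each). Tpst1, one of the enzymes that sulfate tyrosines, the modification PSGL-1 needs to bind P-selectin, was at 7.58 to 11.85 CPM in KO and 3.36 to 5.57 CPM in WT (log2 fold change 1.04, SE 0.30, edgeR adjusted p = 0.298).

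**Figure D4:**
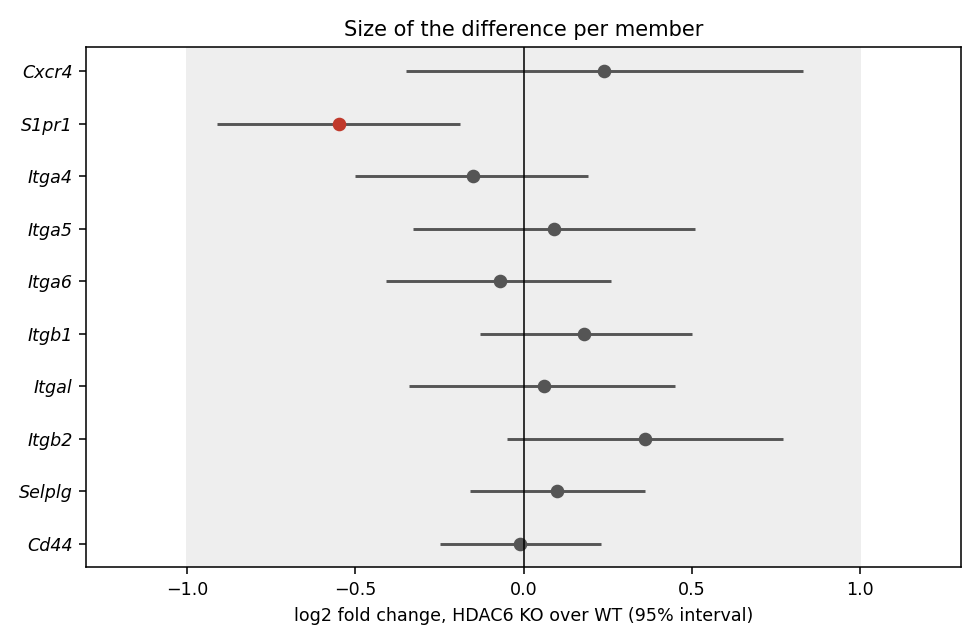
Log2 fold change of each member, HDAC6 KO over WT, as points with 95% intervals from the edgeR fit. The shaded band marks changes smaller than 2-fold and the point in red is S1pr1, whose groups do not overlap. All 10 intervals lie within the band.

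Read as intervals, these data bound the size of any difference between these samples, which are not known to come from separate mice. All 10 intervals lay within a 2-fold change in either direction, and 7 of 10 lay within 1.5-fold, the exceptions being Cxcr4, S1pr1 and Itgb2. Each interval was computed for 1 gene, with no correction for their number. By sign, 6 members lay above WT and 4 below, with a median log2 fold change of 0.07, against 0.00 over all tested genes, of which 49.5% lay above WT. The median SE of the members was 0.16 and that of all tested genes 0.19.

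Per length, the members spanned a wide range of levels. On the FPKM scale, averaged over the 6 libraries, Selplg stood at 230.1, Cd44 at 62.9, Itgb1 at 43.2, Itgal at 26.8, Itgb2 at 25.9, Itga4 at 18.4, S1pr1 at 14.5, Itga5 at 14.4, Cxcr4 at 6.98 and Itga6 at 5.73. The first 3 steps, down to Itgal, were separate, without overlap between the ranges of neighbours. From Itgal to Itga5 every neighbour overlapped the next, and S1pr1 exceeded Itga5 in 2 of 6 libraries, both of them WT. Itga5 and Cxcr4 did not overlap, whereas Cxcr4 and Itga6 did. Selplg lay above 96.7% of tested genes in mean FPKM and Itga6 above 37.4%.

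**Figure D5:**
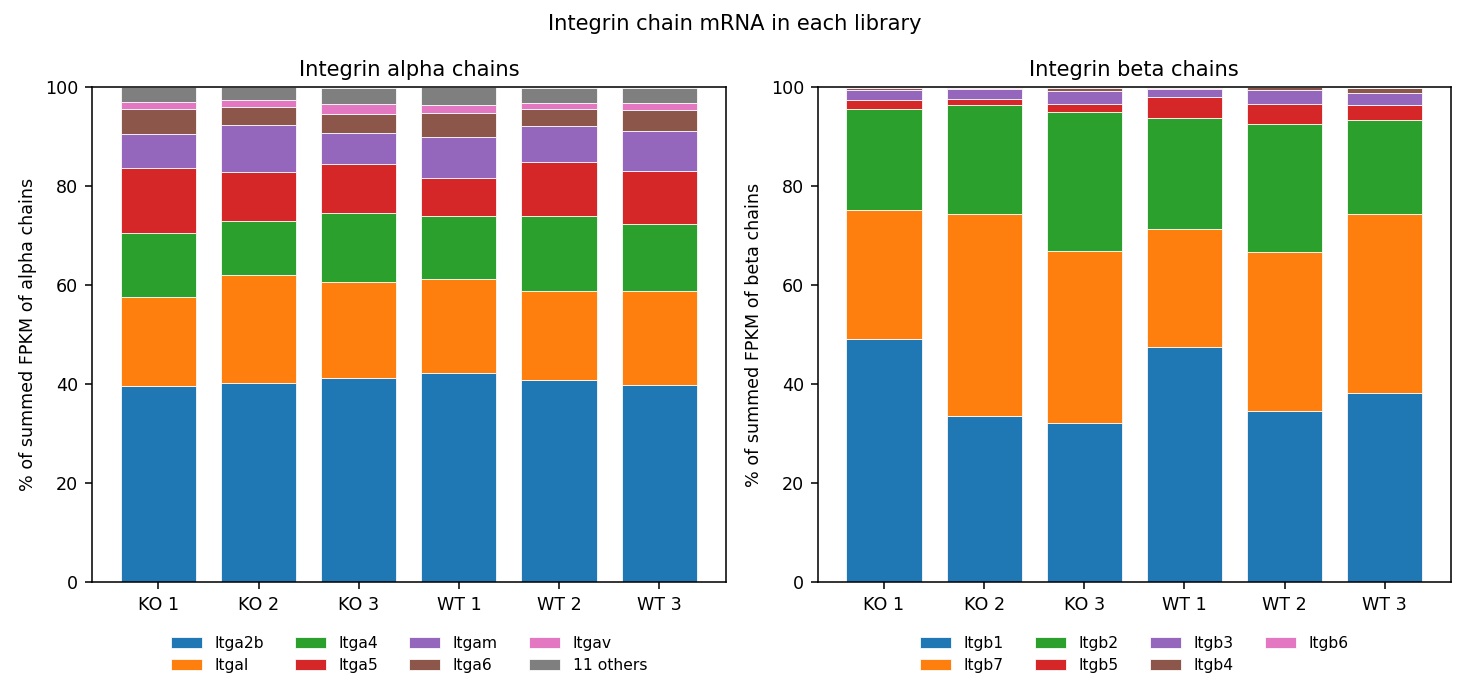
Share of each integrin chain in the summed FPKM of all alpha chains (left) and all beta chains (right), for each KO library and each WT library. The 4 member alpha chains together make up 46.3% to 49.0% in KO and 44.3% to 47.5% in WT.

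Set among all integrin chains in the table, the 4 member alpha chains made up 47.5 ± 1.43% of the summed alpha FPKM in KO and 46.5 ± 1.83% in WT (SD, n = 3 each). Itga2b, the alpha chain of the platelet integrin, was the largest single share, 40.4 ± 0.881% in KO and 41.0 ± 1.15% in WT. On the beta side Itgb1 took 49.2%, 33.5% and 32.1% in KO replicates 1, 2 and 3, against 47.5%, 34.5% and 38.2% in the WT replicates, with replicate 1 highest in both groups. Itgb7, the alternative partner of the Itga4 product, took 26.0%, 40.9% and 34.9% in KO, against 23.9%, 32.2% and 36.1% in WT. Itgb2 held 23.5 ± 4.0% in KO and 22.5 ± 3.37% in WT. Of 20 other integrin genes 15 were tested, 0 passed by edgeR, 1 had an unadjusted p under 0.05 and the median log2 fold change was -0.07. That gene was Itgb5, a partner of the alpha V chain, with 4.88, 4.57 and 5.08 CPM in KO, against 10.30, 10.15 and 7.95 CPM in WT (log2 fold change -0.97, SE 0.25, edgeR adjusted p = 0.298). Itga2, a collagen receptor chain, and Itgb7 had the next smallest p, with log2 fold changes of -0.66 and 0.45.

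Downstream of the receptors, the genes that activate integrins and couple them to actin were read as a list. Of 32 such genes 26 were tested, 0 passed by edgeR, 3 had an unadjusted p under 0.05 and the median log2 fold change was 0.01. The small GTPase gene Rap1b, which acts in integrin activation, had 52.00, 52.17 and 49.24 CPM in KO, against 43.01, 32.03 and 39.75 CPM in WT (log2 fold change 0.42, SE 0.14). Rapgef1, an exchange factor that loads RAP1 with GTP, had a log2 fold change of -0.41, with 33.6 ± 2.81 CPM in KO and 44.4 ± 2.99 CPM in WT (SD, n = 3 each). Both had an edgeR adjusted p of 0.31, and the adaptor gene Fyb followed with a log2 fold change of -0.40.

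Of 35 genes that carry or damp chemoattractant signals, 34 were tested, 0 passed by edgeR, 6 had an unadjusted p under 0.05 and the median log2 fold change was -0.10. Dock2, the exchange factor through which leukocyte chemokine receptors activate RAC, had 350.2, 372.6 and 381.1 CPM in KO, against 459.7, 456.8 and 437.6 CPM in WT (log2 fold change -0.29, SE 0.09, edgeR adjusted p = 0.304). Rac1, its GTPase substrate, was higher in KO with a wide spread, at 133.9, 125.6 and 72.37 CPM in KO, against 30.16, 22.91 and 69.31 CPM in WT (log2 fold change 1.44, SE 0.42, edgeR adjusted p = 0.307). Replicate 3 of each group nearly met in Rac1. Pik3r5, a regulatory subunit of the PI3-kinase that G proteins activate, had a log2 fold change of 0.96 (SE 0.28).

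Other chemoattractant receptors numbered 22 in the list, with 17 tested, 0 passing by edgeR, 3 with an unadjusted p under 0.05 and a median log2 fold change of 0.22. Besides S1pr4, the smallest p belonged to Ptger4, a prostaglandin E2 receptor, with 28.2 to 45.6 CPM in KO and 14.3 to 26.0 CPM in WT (log2 fold change 0.69, SE 0.26, edgeR adjusted p = 0.327), and to Ccr9 with a log2 fold change of -1.06. Of 28 further adhesion receptors 26 were tested, 0 passed by edgeR, 6 had an unadjusted p under 0.05 and the median log2 fold change was -0.05. Cd34, a sialomucin carried by LSK cells and itself a selectin ligand in some tissues, measured 1491, 1360.1 and 1646 CPM in KO, against 1821, 1755 and 1729 CPM in WT (log2 fold change -0.24, SE 0.10, edgeR adjusted p = 0.344). The tetraspanin gene Cd81 and the adhesion gene Alcam also lay below WT in every KO library, with log2 fold changes of -0.33 and -0.66. Over all 8 related lists 152 genes were tested, and 29 had an unadjusted p under 0.05, beside 13.4% of all tested genes. Of the 152 genes, edgeR and limma-voom called 0 and DESeq2 called 1. Groups did not overlap in 35 of them (23.0%), 13 with KO higher and 22 with KO lower, beside 18.6% of all tested genes.

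The profiles most like those of Cxcr4 and S1pr1 were taken from the 10104 other tested genes with a mean of at least 5 CPM, by the mean absolute difference of log2 deviations over the 6 libraries. For Cxcr4 the nearest were Larp1 (0.058 log2 units), Atf6 (0.061) and Lmo4 (0.062), each with its lowest value in WT replicate 1. Lmo4, for example, had 14.2, 15.8 and 11.7 CPM in KO and 8.37, 14.4 and 12.5 CPM in WT. For S1pr1 they were Tmem191c (0.058), Trim6 (0.059) and Dcaf12l1 (0.066), each with its lowest value in KO replicate 2.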

How the data were processed

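Per the labels' protocols, Trizol was used to harvest RNA and the libraries were of a standard Illumina kind. Tools listed in the submitters' processing notes are DESeq2, featureCounts 2.0.3, SAMtools 1.13 and HISAT2 2.2.1, and the build is GRCm39, all without roles. No source used here gives the annotation, the strand setting or the handling of shared reads. For each gene symbol and library, the authors deposited an FPKM and an estimated count, per the file headers. Counts were rounded first, as 19.6% to 20.9% of them per library were not whole. All 10 symbols matched GENCODE M21 of GRCm38, used for chromosome, strand and overlap only, since the build differs.

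KO was compared with WT over the whole table with edgeR 4.0.16 in R 4.3.3 (quasi-likelihood test, robust glmQLFit, filterByExpr with a minimum count of 10, TMM), with Benjamini-Hochberg adjustment over 12875 genes. Levels are CPM, and 3 counts correspond to 0.106 to 0.114 CPM. Standard errors are the log2 fold change over the root of F, and 95% intervals use its degrees of freedom. Tests were checked on simulated data. Pair ratios used deposited FPKM and exact permutation (scipy 1.17.1). Alternatives used DESeq2 1.42.0 and limma 3.58.1.

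The members and lists were chosen with earlier results of these data known. Named were all members, Hdac6, the 3 genes of each list with the smallest p, and 4 markers. The S1P genes and markers given besides, Cerkl and Cxcl12, were named after their values were seen. Each library was counted as 1 sample. Library pairs differed by more than sampling noise (chi-square per degree of freedom at least 24.9), which does not show that they came from separate mice.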

Additional observations from a re-analysis of the deposited data

How the results depend on the processing

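Every one of 16 alternatives called 0 of the 10 members, with edgeR, DESeq2 and limma alike. The 16 covered normalization, filter, tool, unit, replicate block and leaving out each library. DESeq2 called 120 genes higher and 61 lower over the table, against 0 and 1 by edgeR. Leaving out 1 library gave 0 to 30 higher and 1 to 14 lower, most of them without KO replicate 3 and 1 higher and 3 lower without KO replicate 1. Of 160 member values, 149 kept their direction. The 11 that turned belong to Itga5 (-0.12 to 0.23 with 1 library left out), Itga6 (-0.17 to 0.02), Selplg (-0.03 to 0.17), Itgal (-0.14 to 0.24, and -0.04 with either FPKM pseudocount, 1 or 0.1) and Cd44 (-0.10 to 0.06, and 0.01 with no filter). Itga5 over Itgb1 ranged from -0.42 to 0.17 with 1 library left out, against -0.06 with all. S1pr1 stayed between -0.65 and -0.42 and its adjusted p between 0.0944 and 0.744.

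Same-numbered libraries did not deviate together (correlations of 0.0335, -0.0395 and -0.122 for replicates 1, 2 and 3). Differently numbered ones gave -0.0717 to 0.111. This check showed no pairing by number, though it cannot exclude one. With the replicate block edgeR called 0 members, 0 genes higher and 1 lower, and S1pr1 stood at -0.56 (adjusted p = 0.456). With 3 libraries a group, Cxcr4, at 197 to 394 counts, is the member whose difference is least well bounded.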

Other observations

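Genes of niche ligands and related factors were also listed, as read in the LSK cells. Not all of them act through the receptors described here. Of 19 genes, 16 were in the table and 9 were tested, 0 passed by edgeR and the median log2 fold change was -0.24. Among the 9 tested, 4 had an unadjusted p under 0.05, beside 13.4% of all tested genes. Cxcl12, the ligand of CXCR4, reached 0.254 to 1.10 CPM in KO and 0.826 to 3.01 CPM in WT. Angpt1, a ligand of TIE2 that stem cells express themselves, measured 287.6, 284.1 and 517.7 CPM in KO replicates 1, 2 and 3, against 621.0, 621.0 and 516.9 CPM in the WT replicates, so that replicate 3 of each group met (log2 fold change -0.69, SE 0.21, edgeR adjusted p = 0.306). Selp, which encodes P-selectin, the partner of the Selplg product, was at 59.12, 89.22 and 27.74 CPM in KO, against 24.92, 18.74 and 35.66 CPM in WT (log2 fold change 1.15, SE 0.39, edgeR adjusted p = 0.313). KO replicate 3 lay within the WT range. Spp1, which encodes osteopontin, a ligand of the integrins of the Itga4 product, had 10.94, 9.17 and 9.50 CPM in KO, against 5.85, 5.48 and 6.40 CPM in WT (log2 fold change 0.74, SE 0.24, edgeR adjusted p = 0.307), with no overlap.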
